A study of Mus musculus with 12 samples.

Results

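Gpr22 is an orphan receptor of the class A family of G protein-coupled receptors, meaning that no natural ligand has been established for it. It was followed here in every array of a comparison of mouse atria. All probes of the deposited table whose platform symbol is Gpr22 were taken, which gave 1 probe of 46114, or 1 gene of 17655. The gene was selected on its values in the Tbx3 against Control comparison, so its own difference between those groups is given as a description without a test.

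Atrial RNA of 12 male mice was hybridised to Illumina Sentrix Mouse-6 beadchips, which read genes through oligonucleotide probes on beads. The 6 Tbx3 mice were double transgenic, Cre4-CT: Nppa-Cre4 drives Cre recombinase in the atria, and Cre activates Tbx3 from the CT construct. The 6 Control mice carried Cre4 alone, so both groups carried the Cre transgene. No CT mice without Cre were analysed here, so the construct and Tbx3 activation cannot be told apart. The labels give no age and no strain. They number the arrays of each group as biological replicates, 1 to 6.

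G protein-coupled receptors pass a signal to heterotrimeric G proteins, made of an alpha, a beta and a gamma subunit. Receptors coupled to Gi or Go lower cyclic AMP through inhibition of adenylyl cyclase, and in atrial muscle the released beta-gamma dimers open the muscarinic potassium channel. Gpr22 is known for its mRNA in heart and brain and has been reported to couple to Gi and Go in transfected cells. Tbx3 is a T-box transcription factor of the cardiac conduction system that represses working-muscle genes of the atrium, such as the natriuretic peptide gene Nppa and the connexin genes Gja1 and Gja5.

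The labelled tissue carried its defining transcripts. Probes of the atrial light chain genes Myl7 and Myl4, of Nppa and of the alpha myosin chain Myh6 lay at or above the 99.8th percentile of mean brightness. Sln, which encodes the atrial calcium-pump inhibitor sarcolipin, lay at the 81.2nd percentile. Array columns correlated at 0.964 to 0.983 within groups and at 0.959 to 0.979 between them. In limma with Benjamini-Hochberg adjustment over all probes at a threshold of 0.05, 817 probes (1.77%) were higher and 775 (1.68%) lower in Tbx3 atria. Nppa fell by 1.35 log2, Gja1 fell by 0.95 and Gja5 fell by 1.93 (adjusted p = 1.2e-08, 2.94e-07 and 7.95e-07). The brighter of the Tbx3 gene's 2 probes fell by 0.42 log2 (adjusted p = 0.0263 in limma). That call was lost without Control array 1, 2, 3 or 5 or Tbx3 array 3, 4 or 5, with an adjusted p of up to 0.0869. Where these probes lie relative to the transgene is not given in the sources used here, so they do not check the labels.

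The 250 bases in front of the annotated start of Gpr22 are shown because Tbx3 is a DNA-binding factor and this is the stretch in which its short core motif was sought. They lie at chr12:31713884-31714133 on the minus strand of GRCm38.p6, and the sequence is that of RefSeq, read 5′ to 3′ towards the gene. Capitals mark the only match to the T-box core GGTGT, which reads ACACC here because it lies on the opposite strand.
Gpr22: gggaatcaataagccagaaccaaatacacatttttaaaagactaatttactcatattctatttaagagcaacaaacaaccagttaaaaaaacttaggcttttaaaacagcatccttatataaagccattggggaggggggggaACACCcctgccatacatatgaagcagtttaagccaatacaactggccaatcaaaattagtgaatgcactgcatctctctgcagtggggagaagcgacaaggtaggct

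The stretch was poor in G and C, at 39.6% against a median of 52.4% over 32851 mouse promoters of the same length, of which 11.8% were as poor or poorer. It held 1 CG pair. The motifs were searched on both strands. The T-box core match lay 107 to 103 bases before the start, and 36.2% of all promoters held this core. The longer T-box site GGTGTGA, which contains the core, was not among these letters, and 3.33% of promoters held it. The TATA motif TATAAA occurred 1 time, 133 to 128 bases before the start (12.4% of promoters). CCAAT occurred 3 times, at 124 to 120 bases on the opposite strand and at 75 to 71 and 62 to 58 bases (33.8% of promoters). The AAGTG core of NKX2-5 (40.7%) and the GATA motif AGATAA (9.99%) did not occur. A match describes letters only, and no binding was measured.

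Gpr22 was low in every Control atrium and clearly brighter in every Tbx3 atrium. The log2 intensities of Control arrays 1 to 6 were 5.53, 4.68, 4.73, 4.99, 5.26 and 5.31. Those of Tbx3 arrays 1 to 6 were 7.82, 7.48, 7.64, 7.22, 6.99 and 7.56. The groups did not overlap: the lowest Tbx3 array, 5, stood 1.46 log2 above the highest Control array, 1. Over all probes, 508 (1.1%) had every Tbx3 array above every Control array, and nothing is read from that share because Gpr22 was selected in this contrast.

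The mean rose from 5.09 ± 0.34 in Control to 7.45 ± 0.30 in Tbx3 atria (SD, n = 6 each) in log2 intensity. The difference was 2.37 log2, a ratio of 5.16. It was the second largest rise over the 17655 genes, behind the neuronal adhesion gene Cntn2 (2.67) and ahead of the lipid-droplet gene Cidea (1.86). Leaving out single arrays gave differences from 2.29, without Control array 2, to 2.46, without Tbx3 array 5. The deposited table does not state its log base. It was read as base e, and if it were base 2 the difference would be 1.64 and the ratio 3.14. In bulk atrial RNA, more cells that express a gene and more RNA per cell cannot be told apart.

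**Figure D1:**
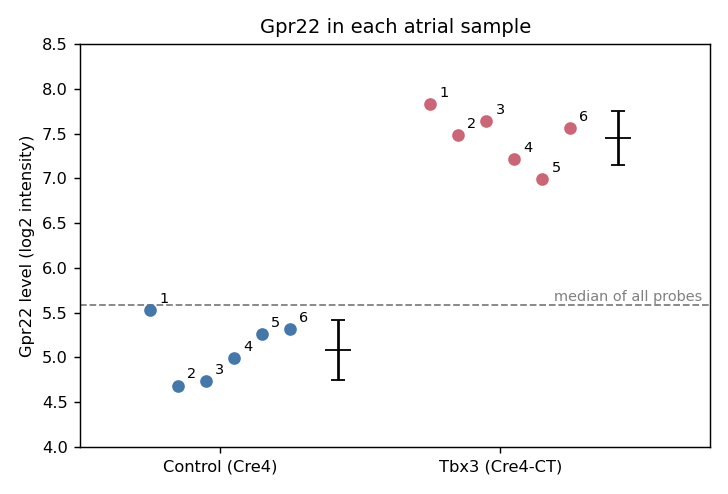
Level of Gpr22 (log2 intensity, vertical axis) in each of the 6 Control and 6 Tbx3 arrays, with the replicate number beside each point, the group mean and SD as a bar, and the median of all probes as a dashed line. All Control points, up to 5.53, lie under the dashed line, and all Tbx3 points, from 6.99, lie above it.

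The 2 groups differ most plainly in where the Gpr22 probe stands among all probes of its array. In the Control arrays its percentiles of brightness were 45.7, 0.425, 0.674, 5.51, 21.8 and 26.4. Each Control value was thus below the median of its array. In the Tbx3 arrays they were 90.6, 88.5, 89.5, 86.7, 85.0 and 89.0. Brightness also depends on the probe, so these ranks place a probe among the others and do not order transcripts. No detection p-values were used, and whether the Control signal exceeded background is unknown. If it did not, the ratio of 5.16 need not be the true one. The direction of that error is unknown, because the background correction is not named.

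**Figure D2:**
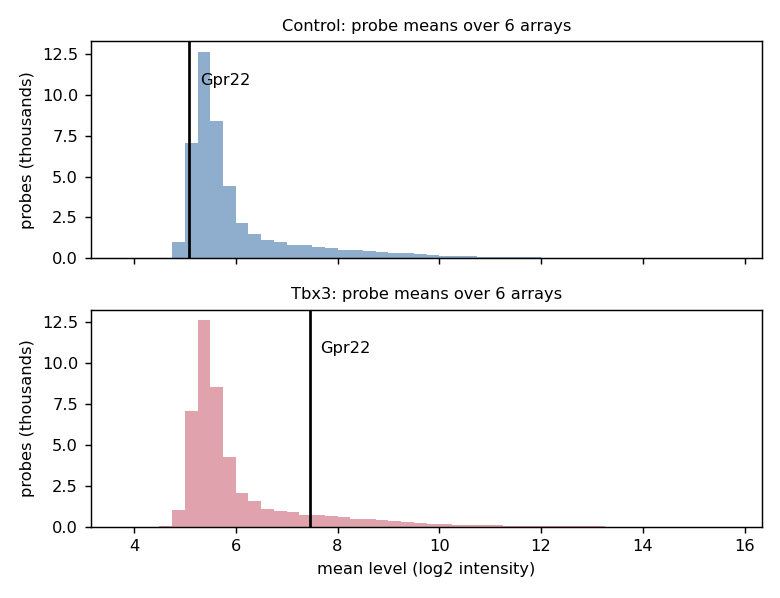
Number of probes (vertical axis) by mean level over 6 arrays (log2 intensity, horizontal axis) in Control (top) and Tbx3 (bottom), with the mean of Gpr22 as a vertical line. Gpr22 sits at 5.09, in the lower flank of the distribution, in Control and at 7.45, in its upper tail, in Tbx3.

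Gpr22 also varied between atria of the same genotype. Its values spanned 0.84 log2 within Control and 0.83 within Tbx3. The within-group SD of 0.32 stood at the 97.7th percentile of all probes. It stood at the 95.0th percentile of the 3514 probes within 0.25 log2 of its mean over all arrays, 6.27. Gpr22 had that level in neither group, so those probes do not match its brightness in Control or in Tbx3. In Control, arrays 2 and 3 were lowest and array 1 was highest. In Tbx3, array 1 was again highest and array 5 was lowest. Odd-numbered arrays alone gave 5.17 ± 0.40 and 7.48 ± 0.44, a difference of 2.31 (SD, n = 3 each). Even-numbered arrays alone gave 5.00 ± 0.31 and 7.42 ± 0.18, a difference of 2.43. These differences are descriptions only, because Gpr22 was selected in this contrast.

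The neighbours of Gpr22 on chromosome 12 are given by their values. Gpr22 overlaps Cog5, a subunit gene of the Golgi tethering complex, in the RefSeq annotation, and Cog5 was not analysed here. Of the 7 neighbours measured, 0 passed the threshold in either direction, where 2.97% of all genes rose and 2.98% fell in the same limma fit. For 7 genes, 0 calls is near those shares, and nothing is read from it. On the side of Dus4l, the changes were -0.03 for Dus4l (adjusted p = 0.968), -0.23 for Bcap29 (0.354), 0.08 for Slc26a4 (0.889) and -0.07 for Cbll1 (0.913). Dus4l belongs to the tRNA dihydrouridine synthases, Bcap29 encodes a membrane protein of the endoplasmic reticulum, Slc26a4 an anion exchanger and Cbll1 an E3 ubiquitin ligase of the m6A writer complex. On the other side they were -0.15 for Hbp1 (0.624), 0.38 for Prkar2b (0.0693) and 0.04 for Pik3cg (0.962). Hbp1 encodes an HMG-box repressor.

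Prkar2b, a regulatory subunit of protein kinase A, and Pik3cg, the PI 3-kinase that beta-gamma dimers activate, are neighbours that also belong to G protein signalling. Prkar2b levels in Control arrays 1 to 6 were 6.76, 7.03, 6.77, 6.97, 7.01 and 7.05. In Tbx3 arrays 1 to 6 they were 7.65, 7.59, 7.08, 7.07, 7.05 and 7.43. All Tbx3 arrays but 5, which equalled the highest Control array to 2 decimals, lay above Control, yet the adjusted p missed the threshold. It passed on the values as deposited (0.0429), with median centring (0.0431), with an intensity trend and robust variance (0.0498), and without Tbx3 array 4 or 5. With its 4 probes averaged, the Prkar2b change was 0.08 (0.699).

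**Figure D3:**
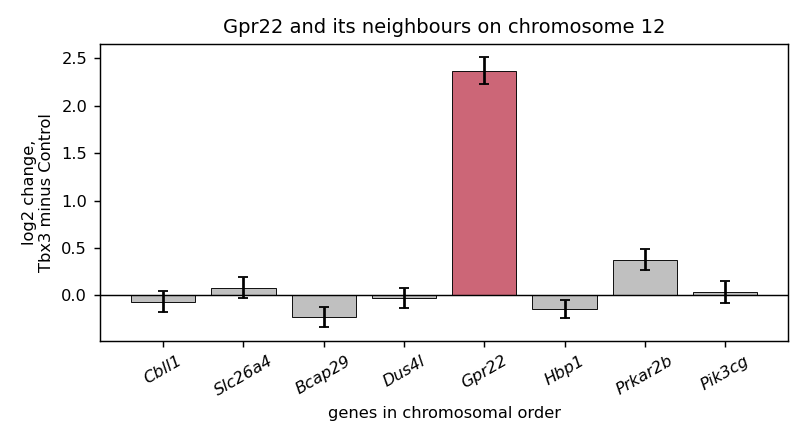
Change between Tbx3 and Control (log2, vertical axis, bars with standard errors of the limma fit) for Gpr22 and the 7 measured neighbours in chromosomal order. Gpr22, which was selected in this contrast, is at 2.37, and the neighbours lie between -0.23 and 0.38.

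The list of G protein subunits was not limited to Gi and Go, and 28 were measured. Of these, 3 rose, 1 fell and 24 did not pass, where 2.97% of all genes rose and 2.98% fell. The median change of the list was 0.06 against -0.003 over all genes. The shares over all genes, here and for the lists below, are not matched for brightness. The median percentile was 84.4 here, 84.9 for the cyclic AMP genes and 77.2 for the Gi effectors and regulators. It was 65.8 for the cardiac receptors and 52.5 for the other genes named Gpr and a number, against 68.1 over all genes. Gng2, a gamma subunit, fell by 1.35 log2 (SE 0.12, adjusted p = 6.12e-09 in limma). Its levels were 9.12, 9.25, 9.29, 9.71, 9.07 and 9.20 in Control arrays 1 to 6 and 7.58, 8.24, 8.0, 7.81, 7.94 and 7.96 in Tbx3 arrays 1 to 6. The groups were fully apart.

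The 3 subunits that rose changed far less. Gnb1, a beta subunit, rose by 0.41 (adjusted p = 0.0200), Gnai2, an inhibitory alpha subunit, by 0.40 (0.0395) and Gng10, a gamma subunit, by 0.35 (0.0419) in limma. These calls depended on single arrays. Gnb1 lost its call without Control array 3 or Tbx3 array 1, 3 or 4 (adjusted p up to 0.0648). Gnai2 lost it without Control array 1, 4 or 5 or Tbx3 array 1, 3, 5 or 6 (up to 0.119). Gng10 lost it without any single array but Control 6 and Tbx3 2 (up to 0.117). The list held 1 call without Tbx3 array 1 or 3, 2 calls without Control array 1, 3, 4 or 5 or Tbx3 array 5 or 6, and 6 without Tbx3 array 2. Gnao1, the Go alpha subunit, had a value of 0.30 (adjusted p = 0.0927), and Gng12 one of 0.34 (0.0503). With an intensity trend and robust variance in limma both passed (0.0320 and 0.0277), and Gng12 also passed without Tbx3 array 2 or 4. Of the 5 Gnao1 probes, 1 passed the threshold in the main fit, and it was not the brightest one used here.

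Downstream of Gi and Go, 35 cyclic AMP genes were measured: 4 rose, 2 fell and 29 did not pass, beside 2.97% and 2.98% of all genes, with a median change of 0.02. Pde1a, a calcium-activated phosphodiesterase, rose by 0.89 log2 (adjusted p = 2.52e-06) and the adenylyl cyclase Adcy7 by 0.61 (0.000237). Pde4a, a cyclic AMP phosphodiesterase, fell by 0.65 (0.000642), and Pde1c fell by 0.62 (0.00169). The last pair rested on 1 called probe each, of 4 and 5. When the probes of each gene were averaged, their changes were -0.21 (0.102) and -0.17 (0.192).

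Among the Gi effectors and receptor regulators, 4 of 31 rose, 3 fell and 24 did not pass, beside 2.97% and 2.98% of all genes, with a median of 0.03. Rgs12 and Rgs6, which speed up GTP hydrolysis on Gi-class alpha subunits, rose by 1.08 (adjusted p = 9.37e-08) and 0.73 (1.65e-05) in limma. Their relative Rgs7 fell by 1.19 (1.09e-07). Kcnj3, a pore subunit of the muscarinic potassium channel, fell by 0.99 (1.2e-05), and the other pore subunit gene, Kcnj5, rose by 0.40 (0.0281). Whether the Kcnj5 call holds with single arrays left out was not examined. Rgs4 had a value of -0.40 (0.128), past the threshold only without Tbx3 array 6 (0.0101), and Ric8b, a chaperone of alpha subunits, had one of -0.22 (0.341).

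Other receptors of the heart changed in both directions. Of 53 cardiac receptors measured of 66 listed, 6 rose, 2 fell and 45 did not pass, beside 2.97% and 2.98% of all genes, with a median change of 0.01. The lysophosphatidic acid receptor genes Lpar3 and Lpar1 rose by 0.97 (adjusted p = 2.52e-06) and 0.53 (0.00267). The sphingosine 1-phosphate receptor S1pr2 rose by 0.61 (0.000526) and the thrombin receptor F2r by 0.42 (0.0157). The 2 that fell were Aplnr (-0.64, limma adjusted p = 0.0173) and P2ry14 (-0.56, 0.0181). F2r lost its call without Control array 5 or Tbx3 array 4 (adjusted p up to 0.0581), and the list held 5 calls without Tbx3 array 1 or 4. The muscarinic receptor Chrm2 had a value of 0.35 (0.397), which was 0.14 without Control array 3, and the vasopressin receptor Avpr1a one of -0.20 (0.432). The beta-1 adrenergic receptor gene Adrb1 was not analysed here.

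Of the 60 other genes named Gpr and a number, taken by symbol alone, 55 did not pass the threshold, 3 rose and 2 fell. These counts were near the 2.97% and 2.98% of all genes, and differences ran from -1.27 to 0.76 with a median of 0.004. Gpr158, an orphan receptor of class C that anchors Rgs7, fell by 1.27, from 7.66 ± 0.34 to 6.39 ± 0.43 (SD, n = 6 each; limma adjusted p = 3.82e-06). Gpr153 rose by 0.76 (0.000166), Gpr85 by 0.57 (0.00170) and Gpr176 by 0.46 (0.00949). Gpr83 fell by 0.38 (0.0389), a call lost without any of 9 single arrays: Control 2, 3, 5 or 6 or Tbx3 1, 3, 4, 5 or 6 (up to 0.125). With the mean of all probes, Gpr85 had 0.16 (0.296) and Gpr83 -0.28 (0.172).

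**Figure D4:**
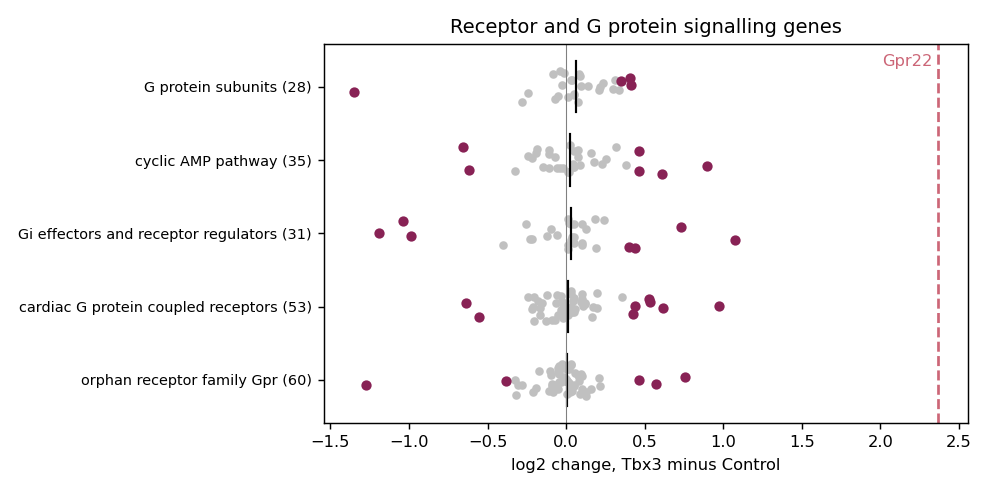
Change between Tbx3 and Control (log2, horizontal axis) of each measured gene of the 5 receptor and signalling lists, with the number of genes in brackets, genes past the limma threshold in purple and the list median as a black line. The medians lie between 0.004 and 0.06. The dashed line marks Gpr22 at 2.37, and nothing is read from its distance to these genes because Gpr22 was selected in this contrast.

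The spread of Gpr22 among atria of the same group was then used to ask which genes went up and down with it. Group means were removed from every gene, so that the contrast on which Gpr22 was selected did not enter. In limma with group and the Gpr22 level as terms, 0 of 46113 probes (0%) passed the threshold for a slope on Gpr22. At an unadjusted p under 0.05 there were 1804 (3.91%), and the smallest adjusted p was 0.209. A slope that differed between Tbx3 and Control atria also passed for 0 probes (0%), with 2427 (5.26%) at an unadjusted p under 0.05 and a smallest adjusted p of 0.25. No gene was thus shown to follow Gpr22, and the genes closest to it are given as a description. Correlations within groups had quartiles of -0.22 and 0.22 over all probes, with 48 probes above 0.8 and 55 below -0.8.

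The closest gene of the 11942 above the median brightness was Mrps36, which encodes a small mitochondrial protein. Its levels were 5.94, 5.30, 5.16, 5.34, 5.82 and 5.88 in Control arrays 1 to 6 and 5.95, 5.66, 5.57, 5.37, 5.16 and 5.72 in Tbx3 arrays 1 to 6. As for Gpr22, Control arrays 2 and 3 were low and Control array 1 and Tbx3 array 1 were highest in their groups. The correlation within groups was r = 0.952 and rho = 0.937 over 12 arrays (permutation p = 0.00013 and 0.00029, unadjusted for the search over genes). It was 0.953 in Control, 0.954 in Tbx3 and 0.943 without the 2 arrays farthest from the median of Gpr22. Mrps36 changed by 0.93 log2 per log2 of Gpr22 (SE 0.16), with an adjusted p of 0.209 in limma. Its change between the groups was -0.002 (adjusted p = 0.999), with opposite sign on the values as deposited (0.01). Its probe was dim, at the 51.9th percentile.

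Among genes above the median brightness with r of 1 sign in both groups, the 10 closest in the same direction had r from 0.805 to 0.952, and 7 of them lay below the 75th percentile of brightness. They were Mrps36, Tmem26, Olfr1440, Cdcp3, Ankrd12, Nrd1, Ednrb, Arpp21, Ak7 and Rtn2. Among the brighter ones were Nrd1, the metalloprotease nardilysin (r = 0.816, 98.2nd percentile), and Ednrb, the endothelin B receptor, which is itself a G protein-coupled receptor (r = 0.815, 93.5th percentile). Ednrb levels were 8.55, 8.35, 8.24, 8.48, 8.67 and 8.82 in Control arrays 1 to 6 and 8.49, 8.38, 8.42, 8.14, 8.21 and 8.47 in Tbx3 arrays 1 to 6. The lowest values were again in Control arrays 2 and 3 and Tbx3 arrays 4 and 5, but the second Ednrb probe had r = -0.015. Rtn2, a reticulon of the endoplasmic reticulum, had r = 0.805, with 0.975 in Control and 0.520 in Tbx3. It was the only one of the 10 past the threshold between groups, and fell by 0.59 (limma adjusted p = 0.00247) while Gpr22 was higher.

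Under the same limits on brightness and sign, the 10 genes closest in the opposite direction had r from -0.879 to -0.801. They were D130007C19Rik, Apol6, Slc7a11, Yeats2, Elavl3, Rnf125, Lat, Kbtbd4, Rsph3a and Spint2, of which 8 lay below the 75th percentile of brightness. D130007C19Rik, a transcript with a clone name only, had r = -0.879 and rho = -0.923 (permutation p = 0.00029 and 0.00026, unadjusted for the search) and -0.818 without the 2 farthest arrays. Rsph3a, a radial spoke protein gene of cilia, was among the brighter ones (94.0th percentile, r = -0.806), and fell by 0.63 between groups (limma adjusted p = 0.000799). Where a gene had further probes, they often did not share the pattern. The other probes of Slc7a11, the cystine transporter, had r from -0.32 to 0.57, and the other probe of Lat, an adaptor of T cells, had 0.45.

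**Figure D5:**
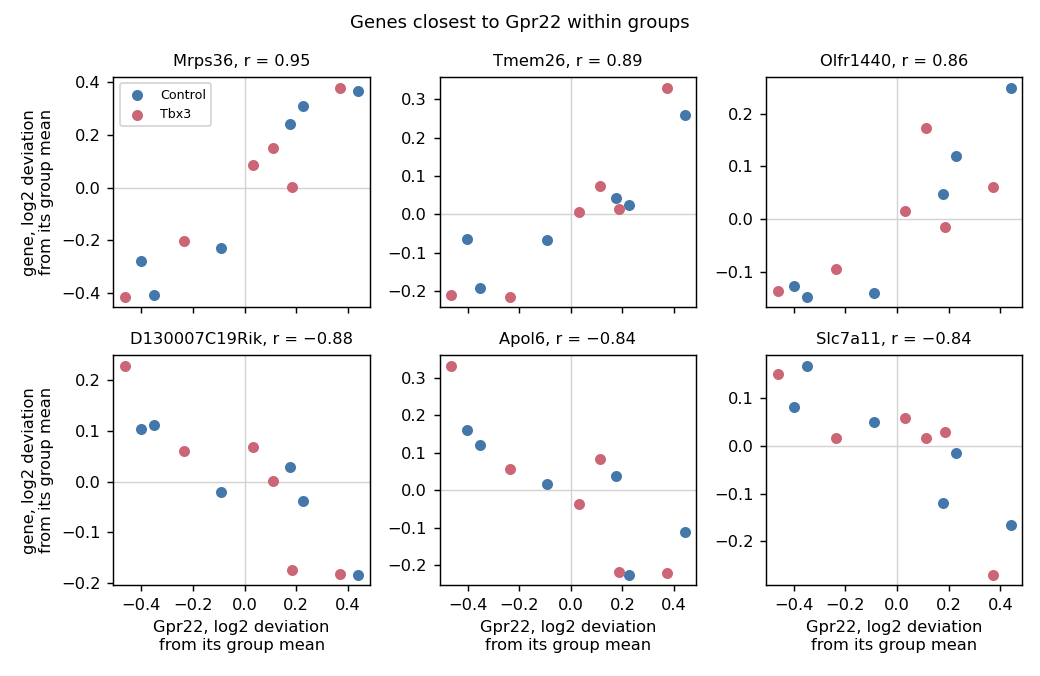
Deviation from the group mean (log2) of Gpr22 (horizontal axes) and of the 3 genes closest to it in the same direction (top) and in the opposite direction (bottom), 1 point per array, coloured by group. The points run up in the top panels (r from 0.857 to 0.952) and down in the bottom panels (r from -0.879 to -0.835).

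Over all 12 arrays with group means left in, likeness to Gpr22 mainly picks genes whose groups stand apart, and the closest are given by their values. Rgs12 came first: its levels were 6.76, 6.63, 6.81, 6.70, 7.02 and 7.13 in Control arrays 1 to 6 and 8.0, 7.90, 8.11, 7.70, 7.74 and 8.06 in Tbx3 arrays 1 to 6. Its groups did not overlap, and within groups its r with Gpr22 was 0.666. The next were Ipo5, a nuclear import receptor (change 0.40), and Sox10, the transcription factor of neural crest and Schwann cells (0.87). Fam13c (0.67) and the axon guidance gene Sema5a (0.95) followed, but with the mean of all probes their values were 0.15 and 0.18. The genes most opposite were Ss18l2 (-0.65), Gng2 (-1.35), the Nudix hydrolase gene Nudt8 (-1.48), Nppa (-1.35) and the mitochondrial import gene Timm21 (-0.43). These differences follow from the way the genes were picked and are given as values without a test.

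Cell type markers were set beside Gpr22 as mean scores over 10 marker lists, each gene centred on its mean. Between the groups, 3 scores did not overlap, and the marker counts below stand beside 2.97% of all genes that rose and 2.98% that fell. These shares are not matched for brightness. Against a median percentile of 68.1 over all genes, the cardiomyocyte markers had 99.8 and the fibroblast markers 96.9. The Schwann cell and neuron markers had 71.8 and the skeletal muscle markers 52.9. Of 15 cardiomyocyte markers, 7 fell and 0 rose, and the score ran from 0.12 to 0.26 in Control and from -0.36 to 0.03 in Tbx3. Of 9 Schwann cell and neuron markers, 3 rose and 0 fell, with scores from -0.19 to -0.08 in Control and from -0.0007 to 0.28 in Tbx3. Of 12 skeletal muscle markers, 4 fell and 0 rose, with scores from 0.18 to 0.54 in Control and from -0.40 to -0.21 in Tbx3. Single genes weigh on these scores. The lowest change among the skeletal muscle markers was -3.28, the lowest of all genes, beside a list median of -0.20. The cardiomyocyte list includes Nppa (-1.35), and its median change was -0.28. Among 14 fibroblast markers 5 rose and 0 fell, with overlapping scores. Of 6 erythroid markers, 1 rose and 0 fell, with a median change of 0.64 and a median percentile of 90.9. The erythroid scores overlapped, from -1.11 to 0.24 in Control and from -0.05 to 0.74 in Tbx3. Their means were -0.27 and 0.27. The part of these shifts in the Gpr22 difference was not tested.

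Within groups, none of the 10 scores was shown to move with Gpr22 by a permutation test with Benjamini-Hochberg adjustment over the 10 lists. The largest correlations were with the epicardium score (r = 0.541, rho = 0.538, permutation p = 0.0977 and 0.0984, adjusted 0.502 and 0.344), the skeletal muscle score (r = 0.510, rho = 0.483, p = 0.117 and 0.138, adjusted 0.502 and 0.344) and the Schwann cell and neuron score (r = 0.445, rho = 0.531, p = 0.151 and 0.0891, adjusted 0.502 and 0.344). Without the 2 arrays farthest from the median of Gpr22, these r were 0.539, 0.512 and 0.541. The epicardium correlation was 0.801 in Control and 0.068 in Tbx3 atria. For skeletal muscle these were 0.768 and 0.053, and for Schwann cell and neuron 0.737 and 0.337. For the cardiomyocyte score, r was -0.134 and rho -0.203 (p = 0.693 and 0.538, adjusted 0.881 and 0.924 by permutation), and for the fibroblast score r was -0.124 and rho -0.035 (p = 0.707 and 0.924, adjusted 0.881 and 0.924). With 12 arrays, the absence of a call does not show that Gpr22 varied independently of cell makeup.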

How the data were processed

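Per the labels' protocols, total RNA (250 ng) was purified on Macherey-Nagel nucleospin columns, amplified with an Ambion Illumina kit and labelled with biotin-16-UTP. The authors deposited 1 log-scale value per probe and array, read here as natural log values. The base is inferred: the largest value, 10.81, is an intensity of 49513 on base e, under the 16-bit ceiling of 65535, and 1795 on base 2. For background correction and normalization, the sources used here name no method. Of 46133 rows, 10 were empty and 9 repeated another row. Values were divided by 0.693 to give log2 and quantile-normalized (limma 3.58.1, R 4.3.3), since interquartile ranges differed by 20.4%.

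Platform symbols were updated through RefSeq, and 29533 probes (64.0%) had 1 symbol. The brightest probe stood for a gene. Tests were 2-sided (lmFit and eBayes, with 28.4 total degrees of freedom). P-values were adjusted by Benjamini-Hochberg across the whole table, and 0.05 was the threshold. Correlations used residuals from group means and 100000 permutations within groups. The test was checked on simulated data. The number of arrays, 6 per group, limits the precision.

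Gpr22, the lists and the tests were chosen with earlier results of these data known. Genes were named by rule: the 10 closest each way within groups (mean above the median of all probes, r of the same sign in both groups), the 5 closest each way over all arrays, up to 4 called and 2 uncalled genes per list, called Gpr receptors, 4 neighbours on each side, and Nppa, Gja1, Gja5, Tbx3, Gnai2, Gnao1, Chrm2, Adrb1, Cog5 and Pik3cg. Kcnj5, Aplnr, P2ry14, Cntn2 and Cidea were named outside the rule, after their values were seen. Their changes were not examined individually under the alternatives. The comparison of protein sequences in that rule was not run. Alternatives were other normalizations, array weights, an intensity trend, blocks, probe averaging, a stricter threshold and arrays left out.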

Additional observations from a re-analysis of the deposited data

Results flagged for a closer look

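Gpr22 itself had no array far from the others of its group. Among 154 groups of 6 arrays examined for the named genes and marker scores, 9 had an array whose gap to the nearest other was more than the critical share of the group's range (Dixon's test at the 95% level), and chance gives about 1 in 20. The levels are log2 intensities.

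Control array 3 stood apart for 3 genes. It was low for Chrm2, at 5.253 against 6.341 to 6.895 in the other 5, and high for Kcnj3, at 9.664 against 8.787 to 8.907. It was also high for Gpr83, at 6.45 against 5.957 to 6.103. Without it, Kcnj3 still fell by 0.85 and passed the limma threshold, and Gpr83 did not pass.

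Control array 4 was high for Gng2, at 9.711 against 9.067 to 9.29, and Gng2 fell by 1.26 without it. Control array 5 was low for Prkar2a, a regulatory subunit of protein kinase A, at 7.836 against 8.134 to 8.243. The change of Prkar2a was -0.33 (limma adjusted p = 0.0957) and passed the threshold without that array or without Tbx3 array 2. Control array 6 was high for Sema5a, at 7.414 against 7.268 to 7.318.

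In the Tbx3 group, array 4 was low for Kcnj3, at 7.547 against 8.018 to 8.198. Array 1, the highest in Gpr22, was low for Slc7a11, at 5.261 against 5.547 to 5.683. Array 2 was low for the macrophage and leukocyte score, at -0.2029 against 0.0686 to 0.193.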

How the results depend on the processing

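The Gpr22 difference kept its direction under every alternative run. Nothing is read from this, because Gpr22 was selected in this contrast and its groups did not overlap. The difference moved from 2.37 to 1.64 log2 if the table is in base 2. It was 2.33 without Control array 4 and Tbx3 array 6, a choice made after seeing the data. At an adjusted p of 0.01, 896 probes were called between groups, 462 higher and 434 lower. Leaving out 1 array gave 1208 to 1619 calls. The G protein subunits held 2 calls on the values as deposited and with median centring, and 1 to 6 with 1 array left out. The cyclic AMP list held 3 with the mean of all probes, and the cardiac receptors 5 to 8 with 1 array left out.

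Same-numbered arrays of the 2 groups had correlations of their deviations from -0.020 to 0.069, and 0 of 6 pairs were over 0.1. Of 12 arrays, 2 correlated best with their own number. No pairing by number was seen, but a small shared effect could be missed by these correlations. With a replicate block, 1 probe, Pdk4, passed for the slope on Gpr22 (-2.36, limma adjusted p = 0.0216), and the Gpr22 difference was 2.37. In that replicate block fit the marker correlations changed sign to 0.617 for cardiomyocyte, -0.240 for erythroid, -0.105 for Schwann cell and neuron and -0.033 for smooth muscle, none past the threshold. Smooth muscle was also -0.038 with median centring and -0.0027 with odd or even number as a block, and adipocyte was -0.068 with median centring. With 1 array left out, correlations ran from -0.166 to 0.239 for adipocyte, -0.224 to 0.216 for cardiomyocyte, -0.347 to 0.127 for fibroblast and -0.065 to 0.232 for smooth muscle.

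The slope on Gpr22 was called for 0 probes without any single array, in the Tbx3 arrays alone (chosen after seeing the data) and without Control array 4 and Tbx3 array 6. With the mean of all probes, Mrps36 passed (limma adjusted p = 0.0270). The slope was the same, but the moderated variance and the adjustment came from gene means instead of probes. The differing slope was called for 0 to 4 probes with 1 array left out: Pdk4 without Control array 1 or 4, Eif3j1 without Control array 2, and Mcm6, Csrp1, Fcer1g and Rgs5 without Tbx3 array 1. The cause was not tested.

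Gng10 also lost its call on the values as deposited (0.0830), with median centring (0.105), in the replicate block fit (0.0679) and with odd or even number as a block (0.0505). Gnai2 did so on the values as deposited (0.0912) and with median centring (0.111), and F2r likewise (0.0501 and 0.0613). The Tbx3 gene did so with the mean of its probes (-0.20, 0.245).

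Changes near 0 took the other sign for Mrps36 (0.014 as deposited and with median centring), Cdcp3 (-0.0024 in both, -0.067 with the mean of probes) and Elavl3 (0.0035 with array weights). With 1 array left out, changes crossed 0 for Apol6 (-0.058 to 0.053), Cdcp3 (-0.049 to 0.063), Dus4l (-0.073 to 0.016), Elavl3 (-0.071 to 0.037), Kbtbd4 (-0.095 to 0.023), Lat (-0.093 to 0.023), Mrps36 (-0.084 to 0.082), Olfr1440 (-0.013 to 0.071), Pik3cg (-0.031 to 0.087) and Rnf125 (-0.101 to 0.028). Without detection calls, the Control levels of Gpr22 and the dim genes near it have unknown distance to background.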

Other observations

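Pdk4, which encodes the kinase that inactivates pyruvate dehydrogenase and rises with fasting and fatty acid use, had the smallest adjusted p for a relation to Gpr22 that differed between the groups (0.25 in limma, not past the threshold). It was named after its values were seen. Its log2 levels were 8.99, 11.17, 11.42, 9.59, 8.67 and 9.25 in Control arrays 1 to 6 and 9.45, 9.82, 9.32, 9.27, 9.42 and 9.25 in Tbx3 arrays 1 to 6. Control arrays 2 and 3, the highest in Pdk4, were the lowest in Gpr22. Because these Control values fall into separate clusters, no correlation is given. Between the groups Pdk4 changed by -0.43 (limma adjusted p = 0.675).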
